A study of Mus musculus with 15 samples.

Results

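The 10 genes described here are the mitochondrially encoded subunits of 2 complexes of the respiratory chain, measured by RNA sequencing in mouse eosinophils from 3 tissues. They were chosen by symbol: 7 genes of complex I (ND1, ND2, ND3, ND4, ND4L, ND5 and ND6) and 3 of complex IV (COX1, COX2 and COX3), 10 of the 26366 genes in the count table. All 10 symbols had 1 row each, among 13 coding genes of the mitochondrial genome in the table. The readout is the share of all counts in a library, and, for single genes, CPM (counts scaled to a common library total).

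Eosinophils are granulocytes of type 2 immunity. There were 7 libraries from the lamina propria of the esophagus (mice 1, 2, 5 and 6, F, cage 1; mice 3, 7 and 8, M, cage 2). Another 4 libraries came from the lamina propria of the colon and 4 from bone marrow, of mice 5 and 6 (F, cage 1) and 7 and 8 (M, cage 2) in each case. All mice were C57/BL6 WT and had been given the carcinogen 4-NQO for 8 weeks and then its vehicle propylene glycol for 8 weeks, which brought them to a stage called pre-cancer; their age is not stated. All 3 groups share this course, and no untreated library was analysed here. Esophageal and colonic eosinophils were taken by positive selection with magnetic beads. For the bone marrow-derived cells the labels do not say whether they were isolated or grown in culture. Sex and cage are one split, so their effects cannot be told apart.

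Mitochondria keep a small circular genome of their own, transcribed from both strands into long precursors that are cut into single messages. Its coding genes supply the hydrophobic core subunits of the respiratory chain, while most subunits of complexes I and IV are encoded in the nucleus. Complex I takes electrons from NADH and pumps protons, and complex IV passes electrons to oxygen. Stretches of mitochondrial DNA have also been inserted into the nuclear chromosomes, where they stay as pseudogenes, and a read from such a stretch can match both places.

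The sequences of 2 members and their nuclear copies show how close such copies are, since 4 of the 10 members turned out to have a copy of nearly their whole length. They come from GENCODE M21 (GRCm38) transcripts, 5′ to 3′. ND4L, a small membrane subunit of complex I, is shown whole beside Gm10222, a pseudogene on chromosome 1. Capitals mark the last 3 bases, which the copy lacks.

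ND4L: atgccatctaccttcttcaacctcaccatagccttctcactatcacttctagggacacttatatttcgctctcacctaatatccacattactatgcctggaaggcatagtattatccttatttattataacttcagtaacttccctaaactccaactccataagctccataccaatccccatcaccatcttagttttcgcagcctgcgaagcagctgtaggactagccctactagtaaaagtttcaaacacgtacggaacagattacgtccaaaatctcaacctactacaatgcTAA

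Gm10222: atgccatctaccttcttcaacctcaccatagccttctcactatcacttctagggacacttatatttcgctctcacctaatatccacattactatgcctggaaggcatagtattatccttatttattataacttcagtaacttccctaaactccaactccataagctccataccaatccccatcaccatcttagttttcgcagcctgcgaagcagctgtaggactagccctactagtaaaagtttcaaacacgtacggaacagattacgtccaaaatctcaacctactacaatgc

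Over the 294 bases of Gm10222 both were 100% identical. ND3, another small membrane subunit of complex I, and its copy Gm28438, also on chromosome 1, aligned over 345 bases with 1 mismatch (99.71% identity). The mismatch is T3C, with the gene's base first and positions counted from 1 at the 5′ end. It falls within the first 33 bases of each, where capitals mark it.

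ND3: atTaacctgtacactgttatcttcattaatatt

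Gm28438: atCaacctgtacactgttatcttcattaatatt

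Full-length copies, taken as at least 99% identity over at least 90% of the gene, were found for COX2 (Gm28661, 100% over 681 bases), COX3 (Gm28437, 100% over 783 bases), ND3 and ND4L. All 4 copies lie on chromosome 1. The other 6 members had shorter or more diverged copies. ND4 matched Gm28439 over 876 of its 1378 bases at 100%, and COX1 matched Gm29216 over 483 bases at 99.79% and Gm13340 over its whole 1545 bases at 97.6%. Of the copies with at least 99% identity to any mitochondrial coding gene, Gm10222 and Gm10925, a copy of ATP6, were counted in the table. The others, Gm28661, Gm28437, Gm28438, Gm28439 and Gm29216, had no row in it. The copies of COX2, COX3 and ND3 could therefore not be set beside their genes. How reads that match a gene and its copy were counted is not stated, so the values of members with such copies are uncertain.

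Depth was low: libraries held 85677 to 371218 counts in the esophagus, 227179 to 612386 in the colon and 189060 to 286166 in the bone marrow. A count of 0 allows up to 3 counts, or 4.90 to 35.0 CPM by library. Genes that define eosinophils were sparse, with a summed level of 83.5 to 474 CPM over 10 markers in the esophagus, 102 to 166 CPM in the colon and 62.9 to 143 CPM in the bone marrow. Their medians were 203 CPM in the esophagus, 148 in the colon and 102 in the bone marrow, with 1 to 7, 7 to 9 and 4 to 7 of the 10 markers detected per library in that order. Single markers were low everywhere: Epx, the eosinophil peroxidase, had 0 counts in each of the 7 esophagus libraries, 0 to 9 in the colon and 2 to 5 in the bone marrow. For Ccr3, which binds eotaxins, the counts were 0 to 23 in the esophagus, 15 to 31 in the colon and 1 to 9 in the bone marrow, and for Il5ra, a cytokine receptor chain, 0 to 33, 5 to 23 and 4 to 8 in that order. Ear2 was also at 0 in every esophagus library, and Prg2 and Prg3 were at 0 in every bone marrow library. The colon library of mouse 8 and the esophagus libraries of mice 1 and 3 stood apart in mitochondrial counts, and the shares and directions of change are also given without them.

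The summed share of the 10 genes separated single libraries rather than tissues. In esophagus it was 2.95% in mouse 1 (95% Wilson interval 2.87 to 3.04), 0.23% in mouse 2, 2.72% in mouse 3 (2.61 to 2.83), 0.316% in mouse 5, 0.329% in mouse 6, 0.269% in mouse 7 and 0.249% in mouse 8. In colon it was 0.302% in mouse 5, 0.875% in mouse 6, 0.267% in mouse 7 and 6.15% in mouse 8 (6.09 to 6.21). Bone marrow libraries of mice 5, 6, 7 and 8 held 0.259%, 0.308%, 0.531% and 0.456%. The groups overlapped: the lowest library of esophagus lay below the lowest of bone marrow, and the highest libraries of esophagus and colon lay above the highest of bone marrow.

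**Figure D1:**
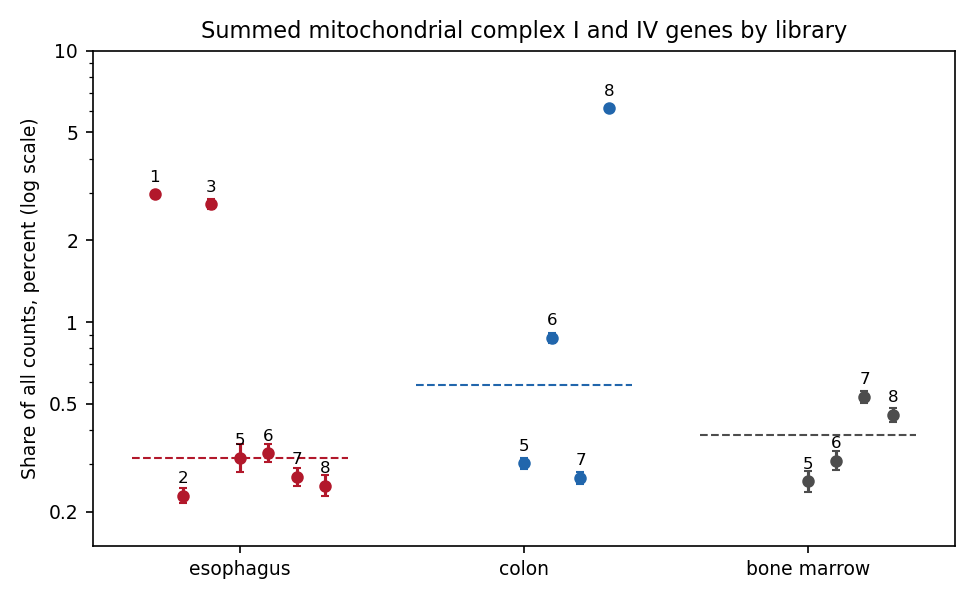
Share of all counts held by the 10 genes in each library, in percent on a log scale, for esophagus, colon and bone marrow; numbers are mice, bars are 95% Wilson intervals and dashed lines tissue medians. The colon library of mouse 8 (6.15%) and the esophagus libraries of mice 1 (2.95%) and 3 (2.72%) lie above the others, which span 0.23% to 0.875%.

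The mean share was 1.01% ± 1.25 in the esophagus (SD, n = 7), 1.90% ± 2.85 in the colon (SD, n = 4) and 0.389% ± 0.126 in the bone marrow (SD, n = 4). Medians were 0.316% in the esophagus, 0.588% in the colon and 0.382% in the bone marrow. Without mice 1 and 3 the esophagus mean was 0.279% ± 0.0427 (SD, n = 5), and without mouse 8 the colon mean was 0.481% ± 0.341 (SD, n = 3). The order of esophagus and bone marrow in the mean therefore rested on 2 libraries. Within cage 1 the means were 0.957% in the esophagus (n = 4), 0.588% in the colon (n = 2) and 0.284% in the bone marrow (n = 2); within cage 2 they were 1.08% (n = 3), 3.21% (n = 2) and 0.493% (n = 2) for the same tissues.

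Mice 5 to 8 gave all 3 tissues, so the share could be set side by side within a mouse. Esophagus over bone marrow was 1.22 in mouse 5, 1.07 in mouse 6, 0.507 in mouse 7 and 0.547 in mouse 8. Colon over bone marrow was 1.16, 2.84, 0.503 and 13.5 in the same mice. Esophagus over colon was 1.05, 0.376, 1.01 and 0.0406. In each of the 3 comparisons mice stood on both sides of 1. These ratios share libraries with one another. In bulk RNA, fewer cells of a type and less RNA per cell cannot be told apart.

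ND1 (ENSMUSG00000064341.1), a membrane-arm subunit next to the site where complex I binds ubiquinone, was counted in all 15 libraries. It had 331 to 3925 CPM in the esophagus with a median of 528. Colon had 525, 1294, 304 and 8258 CPM in mice 5 to 8, and bone marrow 470.1, 524, 859.6 and 806 CPM. The highest values were in esophagus mouse 1 and colon mouse 8, and both tissues had libraries below all those of bone marrow. The log2 fold change, an estimate of the edgeR fit, was 0.22 (SE 0.91) for esophagus versus bone marrow and 1.97 (SE 1.05) for colon versus bone marrow. It was -1.75 (SE 0.88) for esophagus versus colon.

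Per length, ND1 was first among the 10 genes in 9 of 15 libraries, among them all 4 of bone marrow. There it held 491, 547, 898 and 842 CPM per kilobase in mice 5 to 8, against 420.5, 489.6, 658 and 760.4 CPM per kilobase for COX1. COX1 and COX2 were first in 2 libraries each, and COX3 and ND2 in 1 each. The order was thus not the same across libraries, and the bone marrow ranges of ND1 and COX1, its leading genes there, overlapped.

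The large proton-pumping subunits ND2, ND4 and ND5 were likewise above 0 in every library. ND2 (ENSMUSG00000064345.1) had 247 to 1652 CPM in the esophagus (median 363), 309.8, 1026, 180.0 and 4750.3 CPM in colon mice 5 to 8, and 301, 312, 709 and 336 CPM in the bone marrow of the same mice. Esophagus mouse 1, esophagus mouse 3 and colon mouse 8 were its 3 highest libraries. ND2 levels overlapped between tissues, with log2 fold changes of 0.21 (SE 0.84), 1.92 (SE 0.96) and -1.71 (SE 0.80) for esophagus versus bone marrow, colon versus bone marrow and esophagus versus colon.

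ND4 (ENSMUSG00000064363.1) ranged over 242 to 6297 CPM in the esophagus (median 641), was 543, 1263, 302 and 8821 CPM in the colon, and 359, 587, 985 and 924 CPM in the bone marrow. ND5 (ENSMUSG00000064367.1) ranged over 416 to 6064 CPM in the esophagus (median 660.4), was 639, 1871, 473 and 9336 CPM in the colon, and 592, 444, 912 and 936 CPM in the bone marrow. Both had their lowest library in a tissue other than bone marrow and their highest in colon mouse 8. For esophagus versus bone marrow, the log2 fold changes were 0.76 (SE 1.06) for ND4 and 0.58 (SE 0.94) for ND5. For colon versus bone marrow they were 1.95 (SE 1.20) and 2.10 (SE 1.08), and for esophagus versus colon -1.19 (SE 0.9999) and -1.52 (SE 0.90).

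ND6 (ENSMUSG00000064368.1), a small membrane subunit, is the only one of the 10 encoded on the other strand of the mitochondrial genome. Its bone marrow levels were the closest together, at 158, 153, 147 and 162 CPM, from 30, 29, 42 and 40 counts in mice 5 to 8. In esophagus it spread over 13.5 to 1356 CPM (median 96.9), with 2 counts in mouse 3 and 5 in mouse 2 against 192 in mouse 1. Colon held 50.03, 141, 46.8 and 1308 CPM. In 3 of 4 colon libraries and 4 of 7 esophagus libraries ND6 was thus below every bone marrow library. Its log2 fold changes were 0.40 (SE 1.22) for esophagus and 1.31 (SE 1.36) for colon versus bone marrow, and -0.91 (SE 1.16) for esophagus versus colon. ND6 overlaps the end of ND5 on the opposite strand, as ND4L overlaps ND4 on the same strand, and whether counting used strand is not stated.

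ND3 (ENSMUSG00000064360.1) and ND4L (ENSMUSG00000065947.1) were counted in some libraries and at 0 in others. ND3 was at 0 in 6 of 7 esophagus libraries and had 59 counts (689 CPM) in mouse 3. In colon it had 0, 78, 0 and 660 counts in mice 5 to 8, and in the bone marrow 0, 18, 0 and 43. ND4L was also at 0 in 6 of 7 esophagus libraries, with 26 counts in mouse 3. It had 12, 0, 14 and 518 counts in the colon and 12, 0, 0 and 11 in the bone marrow. Neither gene was above 0 in all libraries of a tissue.

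Log2 fold changes of ND3 were -0.37 (SE 2.14) for esophagus versus bone marrow, 2.37 (SE 2.40) for colon versus bone marrow and -2.74 (SE 2.03) for esophagus versus colon, none past the threshold. Without esophagus mouse 3, the only esophagus library with ND3 counts, the fit gave -7.47 and -9.84 for the comparisons with bone marrow and colon, neither of them past the threshold. With mouse as a block ND3 passed in both comparisons with esophagus, at -7.67 against bone marrow (adjusted p = 0.000437) and -9.74 against colon (adjusted p = 0.000133). In the mice that gave all 3 tissues ND3 was at 0 in all 4 esophagus libraries, against 2 of 4 in the bone marrow and 2 of 4 in the colon. The counts came from mice 6 and 8 in both tissues, and mice 5 and 7 had none in any tissue. Differences of ND3 within a mouse therefore rested on mice 6 and 8 alone. Fitted sizes against a group at 0 depend on the prior count and are no bound. ND4L had log2 fold changes of -0.28 (SE 2.02), 3.08 (SE 2.22) and -3.36 (SE 1.86) in the same order of comparisons.

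COX1 (ENSMUSG00000064351.1), the complex IV subunit that holds the heme and copper site where oxygen is reduced, was above 0 in all 15 libraries. It had 552 to 18406 CPM in the esophagus with a median of 722. Colon mice 5 to 8 had 550.4, 1831, 497 and 12769.7 CPM, and bone marrow 649.6, 756, 1017 and 1175 CPM. The highest library was esophagus mouse 3, with 1577 COX1 counts of 2330 for all 10 genes. There COX1 reached 11914 CPM per kilobase, against 2482 for ND4, the next gene. Fold changes of COX1 were 1.40 (SE 1.20), 2.13 (SE 1.32) and -0.73 (SE 1.10) on the log2 scale for esophagus versus bone marrow, colon versus bone marrow and esophagus versus colon. Without esophagus mouse 3 those with esophagus were 0.18 against bone marrow and -1.95 against colon.

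COX2 (ENSMUSG00000064354.1) carries the copper centre that takes electrons from cytochrome c. It was at 0 in 11 of 15 libraries: 6 of 7 in the esophagus, 3 of 4 in the colon and 2 of 4 in the bone marrow. Where it was counted it had 627 counts (4427 CPM) in esophagus mouse 1, 4653 counts (7598 CPM) in colon mouse 8, and 40 and 149 counts (212 and 521 CPM) in bone marrow mice 6 and 7. In esophagus mouse 1 and colon mouse 8 it was the first of the 10 genes per length. The log2 fold changes of 1.26 (SE 2.82), 3.44 (SE 3.30) and -2.18 (SE 2.59) for esophagus versus bone marrow, colon versus bone marrow and esophagus versus colon rested on these single libraries; without colon mouse 8 all colon libraries were at 0.

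COX3 (ENSMUSG00000064358.1), a core subunit with no metal centre, had the largest fold change of the 10 for colon versus bone marrow. Colon libraries of mice 5 to 8 had 195, 222, 468 and 4100 counts, or 375, 977, 842 and 6695 CPM. Bone marrow had 0, 0, 45 and 0 counts, the 45 being 157 CPM in mouse 7. Esophagus had 160 counts (1130 CPM) in mouse 1, 31 (153 CPM) in mouse 6 and 0 in the other 5. Every colon library lay above every bone marrow library, which held for 4.77% of the 10357 genes tested. No other member was separated in this way in either direction: 0 of 10 lay below in that comparison (2.39% of all genes), 0 above (0.164%) or below (1.11%) for esophagus versus bone marrow, and 0 above (0.0772%) or below (0.657%) for esophagus versus colon. The log2 fold change was 5.82 (SE 2.53, 95% interval 0.32 to 11.32) for colon versus bone marrow with an adjusted p of 0.9999 in edgeR's test. For esophagus versus colon it was -4.09 (SE 1.85) with an adjusted p of 0.9999, and for esophagus versus bone marrow 1.73 (SE 2.04). COX3 has a full-length nuclear copy, so this order of tissues carries the uncertainty named for such genes.

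**Figure D2:**
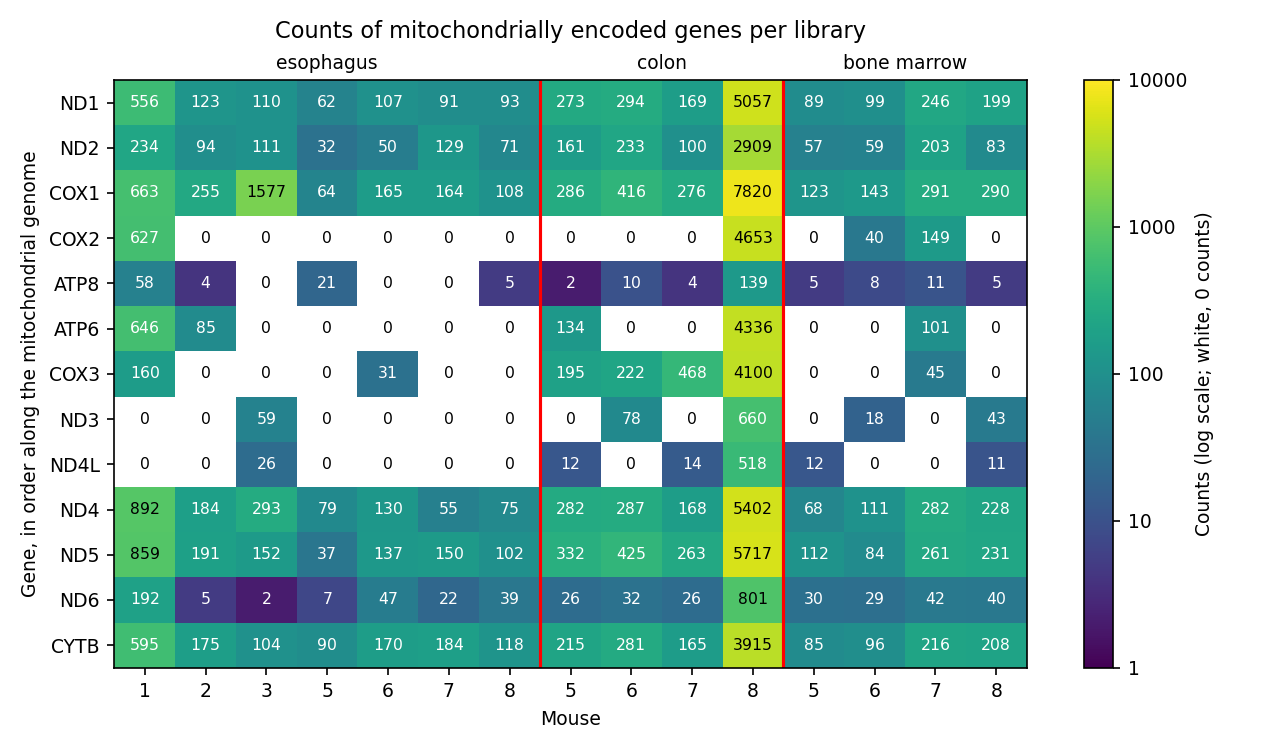
Counts of the 13 mitochondrially encoded coding genes (down, in their order along the mitochondrial genome) in each library (across, by mouse), coloured on a log scale, with white cells for 0 counts. COX2, COX3, ND3 and ND4L are at 0 in 8 to 11 libraries, while ND1, ND2, ND4, ND5, ND6 and COX1 are above 0 in all 15.

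Zeros fell on the members with a full-length nuclear copy. COX2 was at 0 in 11 of 15 libraries, ND3 in 10, ND4L in 9 and COX3 in 8, and these are the 4 members with a full-length copy. The 6 members without one were never at 0. Among the 3 other mitochondrial coding genes ATP6, which has a full-length copy, was at 0 in 10 libraries. CYTB and ATP8 have none, and they were at 0 in 0 and 3 libraries; ATP8 is the shortest at 204 bases. This split of the genes by copy was made after the values were seen and is a description.

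Neighbouring genes of the same library give a scale for these zeros. At the counts per length of the 6 members without a full-length copy, the libraries with no COX2 count would hold 26.5 to 212 counts of it (median 80.3). For COX3 the figures were 30.3 to 242 (median 61.3), for ND3 13.5 to 163 (median 35.7) and for ND4L 11.5 to 139 (median 26.0). The highest figures of COX2 and COX3 were those of esophagus mouse 3, where COX1 held 70.2% of the counts of the 6. This scale takes each gene to hold the same counts per length, which the libraries with counts did not bear out for every gene. There ND4L was at 0.216 to 0.613 times the scale in 6 libraries (12 counts against 55.6 in colon mouse 5, and 26 against 91.8 in esophagus mouse 3) and ND3 at 0.497 to 0.965 times in 5. COX2 was at 0.809 to 1.96 times the scale in 4 libraries and COX3 at 0.315 to 4.33 times in 7. The part of depth in the zeros was not tested.

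The copies in the table and their genes had counts in different libraries. ATP6, a subunit of the ATP synthase, and Gm10925 were never above 0 in the same library: 5 libraries had counts of the gene alone and 10 of the copy alone. ND4L and Gm10222 were also never both above 0, with 6 libraries for the gene alone, 6 for the copy alone and 3 with neither. In bone marrow, ND4L had 12 and 11 counts in mice 5 and 8, and Gm10222 17 and 23 in mice 6 and 7. Summed with its copy, ATP6 was above 0 in all 15 libraries, with medians of 348 CPM in the esophagus, 505 in the colon and 319 in the bone marrow.

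**Figure D3:**
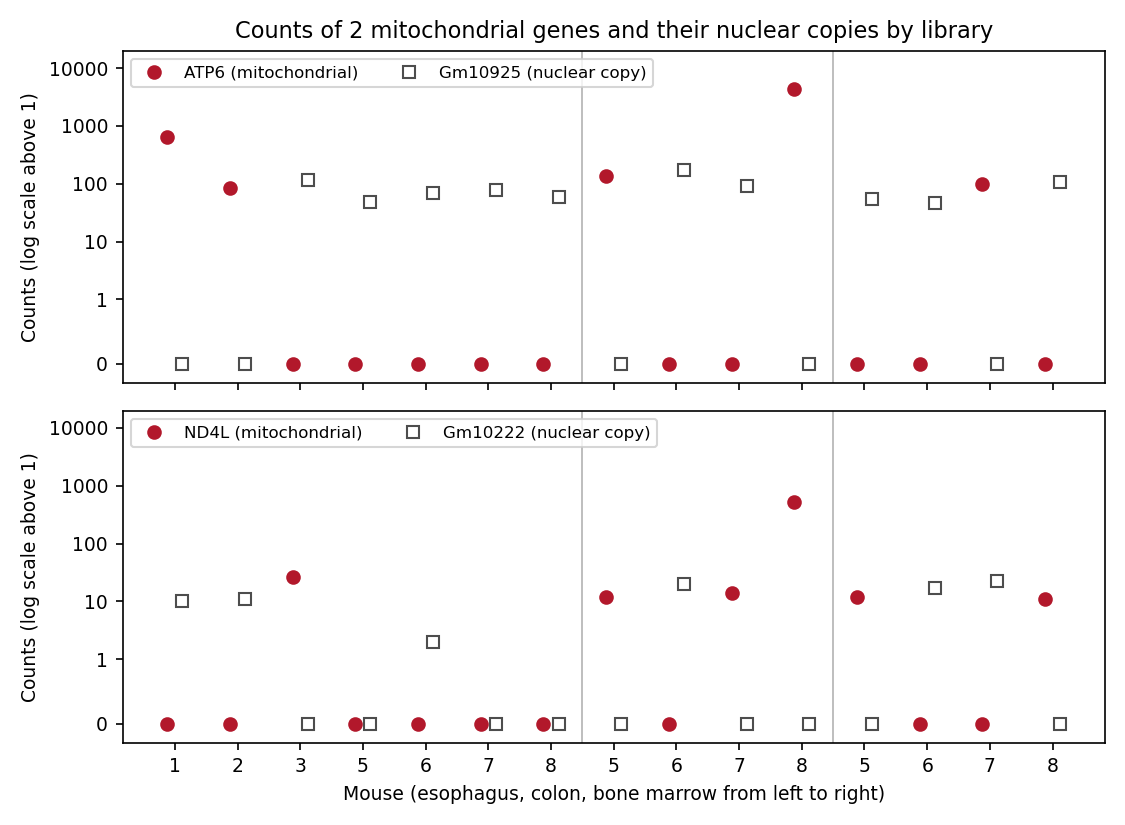
Counts of ATP6 and ND4L (filled circles) and of their nuclear copies Gm10925 and Gm10222 (open squares) in each library, on an axis that is logarithmic above 1 and shows 0. No library has both a gene and its copy above 0.

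In 7 of 15 libraries, 5 of the esophagus and 2 of the bone marrow, COX2 and COX3 were both at 0 and COX1 alone made up the complex IV counts, so the share of complex IV carries the uncertainty of those genes. Complex IV genes held 22.1% to 34.7% of the member counts in 6 esophagus libraries and 67.7% in mouse 3. In colon they held 30.7%, 32.1%, 50.1% and 44.0% in mice 5 to 8, and in the bone marrow 25.1% to 31.9%. The values above 40% were those of the library with high COX1, esophagus mouse 3, of colon mouse 7, where COX3 was first per length, and of colon mouse 8, where COX2 was. Set against the 6 members without a full-length copy alone, COX1 held 19.5% to 29.9% in 6 esophagus libraries and 70.2% in mouse 3, 21.0% to 28.2% in the colon and 22.0% to 27.2% in the bone marrow. Across the 15 libraries, the 6 members without a full-length copy had pairwise Spearman correlations of CPM of 0.318 to 0.964 (median 0.721). Without the 3 libraries that stood apart the range was 0.147 to 0.937 (median 0.462, 12 libraries). These points share library depth.

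None of the 10 genes passed an adjusted p of 0.05 in any comparison by edgeR's quasi-likelihood test, and all 10 were tested. For esophagus versus bone marrow, 0 members were called higher (0.0193% of all genes) and 0 lower (0.811%), and 0 had an unadjusted p under 0.05, as 4.586% of all genes did. For colon versus bone marrow, 0 were called higher (0.0%) and 0 lower (0.434%), and COX3 alone had an unadjusted p under 0.05 (2.115% of all genes). For esophagus versus colon, 0 were called higher (0.0676%) and 0 lower (0.0193%), and again COX3 alone had an unadjusted p under 0.05 (2.646%). DESeq2 and limma voom with quality weights also called 0 of the 10 in each comparison. For esophagus versus bone marrow DESeq2 gave no adjusted p for ND4L (log2 fold change -4.50) and COX2 (-5.68). It could not call these genes there.

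The fold changes leaned one way in the colon. For colon versus bone marrow 10 of 10 members were above 0, with a median log2 fold change of 2.11 against 0.02 over all genes tested, but with mouse as a block 8 were above 0 and 2 below (median 1.08), and 8 of 10 were below 0 with limma voom and its quality weights (median -0.41). Without the 3 libraries that stood apart 4 were above 0 and 4 below among the 8 members then tested, with a median of -0.03. For esophagus versus bone marrow 8 were above 0 and 2 below, with a median of 0.49 against -0.18 for all genes; with library size alone as scaling 10 were above 0, and with mouse as a block 10 were below 0 (median -0.63), as were 9 with limma voom. For esophagus versus colon all 10 were below 0, with a median of -1.73 against -0.21, and 9 with limma voom. Scaling by library size alone gave medians over all genes of 0.21, 0.23 and -0.03 for esophagus versus bone marrow, colon versus bone marrow and esophagus versus colon. The 3 comparisons share libraries, so these directions are not separate evidence.

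Some of those directions turned when 1 library was left out and others did not. Without colon mouse 8, 12 of 27 fold changes over the 3 comparisons had the opposite sign, and without esophagus mouse 1, 6 of 27; without any other single library it was 0 or 1. Without colon mouse 8, the log2 fold changes for colon versus bone marrow were -0.12 for ND1, -0.22 for ND4, -1.23 for ND6, -0.12 for COX1 and -8.74 for COX2, then at 0 in the colon, while ND2 (0.08), ND3 (0.51), ND5 (0.26) and COX3 (3.996) stayed above 0. ND4L did not pass the filter there. For esophagus versus colon ND3 (-0.90) and COX3 (-2.32) stayed below 0 without that library, and COX2, at 0 in its colon libraries, was above 0. The others became 0.30 for ND1, 0.10 for ND2, 0.95 for ND4, 0.28 for ND5, 1.59 for ND6 and 1.47 for COX1. With esophagus mice 1 and 3 left out as well, 7 of the 8 members then tested were below 0 for esophagus versus colon (median -0.62). ND6 was above 0 (0.60). Without esophagus mouse 1, the log2 fold changes for esophagus versus bone marrow were -0.56 for ND1, -0.16 for ND2, -0.06 for ND4, -0.37 for ND5, -0.83 for ND6 and -0.81 for COX3. ND3 and ND4L were below 0 with and without it, and COX1 stayed above 0 at 1.31. Without all 3 libraries that stood apart, the 6 members without a full-length copy were at -0.51 to -0.78 for esophagus versus bone marrow, none past the threshold. COX3 stayed above 0 for colon versus bone marrow in that fit, at 3.95. Calls also depended on colon libraries. Without colon mouse 5, ND2 passed edgeR's test for colon versus bone marrow (2.28, adjusted p = 0.00175) and for esophagus versus colon (-2.11, adjusted p = 0.00189). Without colon mouse 7, ND1 (2.36, adjusted p = 0.0156) and ND2 (2.31, adjusted p = 0.00083) passed for colon versus bone marrow, and ND1 (-2.19, adjusted p = 0.0140) and ND2 (-2.14, adjusted p = 0.00107) for esophagus versus colon. The colon library of mouse 8 was among those kept in these fits.

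**Figure D4:**
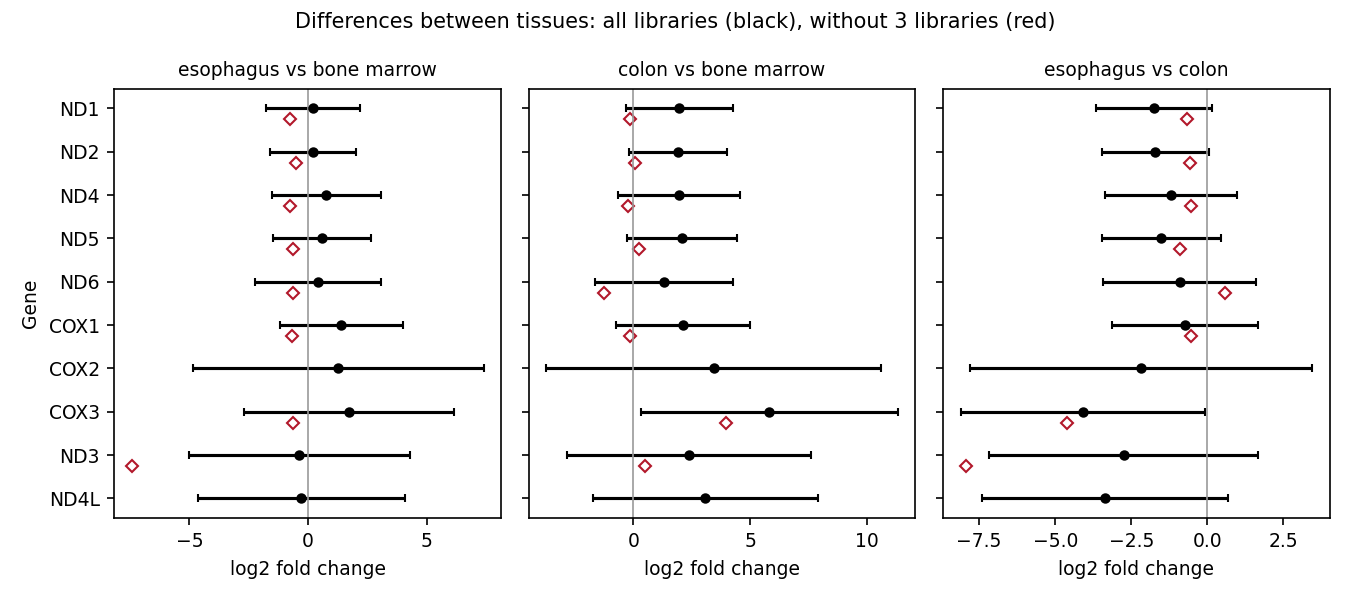
Log2 fold changes of the 10 genes in the 3 comparisons, with 95% intervals, from all 15 libraries (black) and without colon mouse 8 and esophagus mice 1 and 3 (red diamonds, drawn where the gene passed the filter on low counts). Black points for colon versus bone marrow lie above 0 for all 10 genes, and without the 3 libraries ND1, ND4, ND6 and COX1 lie below it.

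Values of other genes moved with the high libraries. In colon mouse 8, the 12 colon epithelium markers summed to 1737 CPM (10 of 12 detected), against 123 to 194 CPM in the other colon libraries and 161 to 299.8 CPM in the bone marrow. Lgals4 had 404 counts there, Krt8 266, Slc26a3 148 and Cdh17 117, and Krt18 and Phgr1 were at 0. Nuclear genes of complex I summed to 2797 CPM in that library against 563 to 713 CPM in the other colon libraries, nuclear genes of complex IV to 2783 against 115 to 149.7 CPM, and ribosomal protein genes to 1.22% of counts against 0.166% to 0.172%. The part of these cells or of this RNA in the mitochondrial counts was not tested.

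Other values went with the esophagus libraries of high share. In mouse 1, nuclear complex IV genes were at 14.1 CPM (2 counts), the lowest of the esophagus libraries, and colon epithelium markers at 544 CPM (4 detected of 12), the highest of them. Muscle, fibroblast and endothelium markers were also highest there (628 CPM). Markers of neutrophils (56.5 CPM), B and plasma cells (91.8 CPM) and T and NK cells (0 counts) were the lowest. In mouse 3, the fewest genes were detected (6965) and Rn18s, the 18S ribosomal RNA, took 2.61% of counts, the most of any library. Marker lists were also highest there among the esophagus libraries for squamous epithelium (373 CPM, 3 detected of 8), neutrophils (490.2 CPM, 4 of 8), B and plasma cells (385 CPM, 2 of 8) and T and NK cells (362 CPM, 2 of 8). Other lists were low in mouse 3. Macrophage and dendritic cell markers were the lowest of the esophagus libraries (140 CPM), erythroid markers were at 0, and eosinophil markers were at 128 CPM (1 detected of 10). Ribosomal protein genes took 0.770% of counts in mouse 3 and 0.649% in mouse 1, against 0.271% to 0.610% in the other 5 esophagus libraries. Their part in the mitochondrial counts was not tested. Olfactory and vomeronasal receptor genes, which act in sensory neurons, held 1.15 to 5.33 counts per kilobase in the esophagus, 4.27 to 8.53 in the colon and 2.09 to 3.79 in the bone marrow. The 6 members without a full-length copy held 22.0 to 258 times as many in the esophagus, 17.1 to 502 times in the colon and 31.6 to 48.2 times in the bone marrow. A set of 18879 other coding genes held 0.987 to 4.54, 2.69 to 7.09 and 2.38 to 3.52 counts per kilobase in these tissues. This set lay below the receptor genes in every esophagus and colon library and in bone marrow mouse 7. It lay above them in bone marrow mice 5, 6 and 8. Whether single marker lists or nuclear genes of the respiratory chain exceeded the receptor genes was not tested.

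Few nuclear genes of the same pathway had enough counts to be tested. Of 37 nuclear genes of complex I 7 were tested and 0 called in any comparison, and of 11 of complex IV 3 were tested and 0 called. Assembly factors gave 10 tested of 29 and 0 called, and genes that maintain or express the mitochondrial genome 16 tested of 28 and 0 called. At an unadjusted p under 0.05 there were 0 of the complex I genes for esophagus or colon versus bone marrow and 1 for esophagus versus colon; for complex IV the numbers were 0, 1 and 2, for assembly factors 1, 0 and 0, and for genome expression 0 in each. Over all genes tested that share was 4.586%, 2.115% and 2.646% for esophagus versus bone marrow, colon versus bone marrow and esophagus versus colon. With 3 to 16 genes tested per list, these counts say little about a list as a whole.

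Cox6c, a small nuclear subunit of complex IV, averaged 49.8 ± 56.8 CPM in the esophagus (SD, n = 7), 152 ± 228 in the colon (SD, n = 4) and 47.7 ± 31.6 in the bone marrow (SD, n = 4), with 493.2 CPM in colon mouse 8. Cox5a, another, reached 392 CPM there and 36.5 CPM at most in the bone marrow. Ndufab1, the acyl carrier protein of complex I, reached 420 CPM there against 93.2 CPM at most in the bone marrow. Ndufb2 and Ndufs1, which carry no such peak, had 89.8 and 80.0 CPM in that library, within the range of the colon libraries. Cox7b averaged 48.0 CPM in the esophagus, 40.6 in the colon and 13.9 in the bone marrow, with 113 CPM in colon mouse 8. Its medians were 14.8, 19.4 and 9.29 CPM, and bone marrow libraries had 0 to 7 counts of it.

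Acad9, a complex I assembly factor, averaged 183 ± 158 CPM in the esophagus, 275 ± 51.5 in the colon and 231 ± 11.8 in the bone marrow. Cox14, which acts in COX1 assembly, averaged 50.5 ± 91.2, 68.4 ± 25.1 and 189 ± 102 CPM in the same tissues, with a log2 fold change for esophagus versus bone marrow of -2.14 (SE 0.85) and an adjusted p of 0.6358 in edgeR's test. Cox17, a copper chaperone for complex IV, averaged 58.7, 101 and 84.8 CPM, with 225 CPM in colon mouse 8. Its medians were 61.6, 72.6 and 82.4 CPM. Polg, the polymerase that copies the mitochondrial genome, averaged 121, 123 and 85.5 CPM, and Fastkd2, an RNA-binding protein of mitochondria, 54.8, 77.0 and 41.4 CPM. Mterf3, which acts on mitochondrial transcription and ribosome assembly, averaged 359 ± 236, 219.9 ± 61.6 and 181 ± 52.6 CPM.

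The tested genes whose level across the 15 libraries was most like the summed 10 genes, by Spearman correlation of log2 CPM, were Tle1 (0.818), Phf20l1 (0.782), Hspa4 (0.774), Spag16 (0.771) and 9330178D15Rik (0.770). Without the 3 libraries that stood apart the values over 12 libraries were 0.664, 0.636, 0.768, 0.580 and 0.585. The points share depth and the correlations are a description.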

How the data were processed

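The authors deposited 1 table of raw counts per gene, as its title says, for 15 libraries of amplified total RNA; every value is a whole number. Which aligner, counter, build and annotation served is not given in the sources used here; limma 3.50.3 is listed, without its use, per the submitters' processing notes. Of the gene identifiers, 26299 matched GENCODE M21, which served for gene lengths, strand, order and transcript sequences.

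The 10 genes and all lists were chosen with earlier results of these data known. After filterByExpr (minimum count 10 and total 15) 10357 genes remained for testing, with TMM scaling. All 3 comparisons of tissues came from 1 quasi-likelihood fit (edgeR 4.0.16, R 4.3.3) over all 15 libraries with tissue alone and 12 residual degrees of freedom; the common biological coefficient of variation was 0.817. Genes with an adjusted p (Benjamini-Hochberg, across the tested genes) below 0.05 were called. The fit was tested on simulated data. Alternatives were other scalings, no filter, a mouse block, the 2 tissues alone, DESeq2 1.42.0, limma voom 3.58.1 and leaving out each library. Chosen after seeing the data were summing genes with their nuclear copies, leaving out 3 libraries, and shares over 6 members.

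Nuclear copies were found with BLASTN (BLAST+ 2.17.0, e-value at most 1e-20, at least 100 bases) of mitochondrial coding transcripts against all M21 transcripts. Named were all 10 genes and the other mitochondrial coding genes, of each nuclear list the called genes or else the 3 tested ones with the highest mean CPM, and the 5 tested nuclear genes most correlated with the summed members. Libraries of the same mouse number come from the same mouse by the labels; the deviations from tissue means correlated, in 12 same-mouse pairs, at -0.0198 to 0.0368, and in 36 other pairs, at -0.0623 to 0.0698. Wilson intervals and the 3-count floor hold counting error alone, because reads were amplified without molecular tags. Marker lists of squamous epithelium, colon epithelium, eosinophils, macrophages and dendritic cells, neutrophils, B and plasma cells, and T and NK cells had 0 calls, but only 1 to 3 markers of each list passed the filter (1 of 10 for eosinophils), which says little about these lists; of the muscle, fibroblast and endothelium list, with 5 of 12 tested, Pecam1, at 171 to 259 counts in bone marrow, was called lower in esophagus and in colon than in bone marrow, and no erythroid marker was tested.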

Additional observations from a re-analysis of the deposited data

Results flagged for a closer look

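Of 36 groups of 4 to 7 libraries examined for a value far from the rest, 20 held one. The expectation of about 1 in 20 by chance holds for separate groups and does not apply here, since the genes were measured in the same libraries. In 5 of the 20, a single library was above 0 and all others of its tissue were at 0, which sets the value apart by itself. In colon the library of mouse 8 stood apart in 9 of them. Its levels there were 8258 CPM for ND1, 8821 for ND4, 846 for ND4L, 9336 for ND5, 1308 for ND6, 12770 for COX1, 7598 for COX2 and 6695 for COX3, and its summed share was 6.15%. In esophagus mouse 1 stood apart for ND1 (3925 CPM), ND5 (6064 CPM), ND6 (1356 CPM), COX2 (4427 CPM) and COX3 (1130 CPM). Esophagus mouse 3 stood apart for ND3 (689 CPM), ND4L (303 CPM) and COX1 (18406 CPM), and for the 67.7% of its member counts that came from complex IV. In bone marrow mouse 7 stood apart for ND2 (709 CPM) and COX3 (157 CPM).

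In the mice that gave both tissues, esophagus minus bone marrow differed in sign between the F mice of cage 1 and the M mice of cage 2 for 3 of the 6 members counted in every library and for the summed share. For ND1 it was 227 CPM in mouse 5 and 4.29 CPM in mouse 6, both F, and -459 CPM in mouse 7 and -331 CPM in mouse 8, both M. For ND4 it was 529, 54.3, -743 and -540.2 CPM in mice 5 to 8. For COX1 it was 69.5, 57.7, -295 and -623 CPM. For the summed share it was 0.0564, 0.0207, -0.262 and -0.206 percentage points. The 95% Wilson intervals of the 2 tissues overlapped for ND1, COX1 and the summed share in mice 5 and 6, and for ND4 in mouse 6. No sign is clear there, as for ND1 in mouse 6 with 107 counts in the esophagus and 99 in the bone marrow. Among ND1, ND4 and COX1, only ND4 in mouse 5 had intervals apart in the F mice. All 3 and the summed share had them apart in mice 7 and 8. The other 3 did not split this way: ND2 was at 58.5, -65.4, -141 and 26.7 CPM, ND5 at -176, 232, -252 and -414 CPM and ND6 at -79.8, 78.5, -49.9 and 37.3 CPM in mice 5 to 8. With 2 mice a side this difference was not tested, and sex and cage cannot be told apart. Colon minus bone marrow and esophagus minus colon were screened by the same rule. Neither the summed share nor any member counted in every library split this way there.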

How the results depend on the processing

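No member was called, as in the report, under every other alternative than these. With mouse as a block, the same-mouse libraries being paired, 1 member (ND3) was called lower for esophagus versus bone marrow and 1 (ND3) for esophagus versus colon. Among the paired mice ND3 had counts in mice 6 and 8 alone. With no filter on low counts, 1 (ND2, -1.96, adjusted p = 0.0419 in edgeR) was called lower for esophagus versus colon. Leaving out each library in turn gave 0 to 2 members higher for colon versus bone marrow: ND2 without colon mouse 5, and ND1 and ND2 without colon mouse 7. It gave 0 to 2 members lower for esophagus versus colon: the same genes without the same libraries. The cause was not tested. Single fold changes had the opposite sign under limma voom in 16 cases, under the mouse block in 10 and without colon mouse 8 in 12. All genes called numbered 86, 45 and 9 for esophagus versus bone marrow, colon versus bone marrow and esophagus versus colon, and 153, 79 and 97 with no filter, 26, 173 and 4 by limma voom, and 101, 80 and 4 with the block. DESeq2 called 81 and the 2 tissues alone 139 for colon versus bone marrow, and the 2 tissues alone 16 for esophagus versus colon, where leaving out the 3 libraries that stood apart gave 3. Leaving out each library gave 74 to 117, 42 to 80 and 1 to 32 calls. Mean shares without each library spanned 0.685% to 1.14% in the esophagus, 0.481% to 2.44% in the colon and 0.341% to 0.432% in the bone marrow. Low depth limits genes at 0, and no share or fold separates reads of a gene from those of its copy.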
